A study of Mus musculus with 50 samples.

Results

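Inputs of the D1-Cre and D2-Cre mouse lines were compared, to ask which genes differ by transgenic line in tissue that was not purified for a cell type. The members were chosen by genotype and sample type, as the input libraries of each line, and numbered 18 (9 D1-inputs and 9 D2-inputs) of the 46 libraries in the count table and of the 50 samples of the series. An input is RNA of homogenized nucleus accumbens (NAc), the ventral part of the striatum, from supernatant that was set aside and not precipitated, so that it comes from all cells of the punches. The study used the RiboTag (RT) method, in which Cre recombinase switches on an HA-tagged form of the ribosomal protein Rpl22. An antibody against HA then precipitates the ribosomes of either class of medium spiny neuron (D1-MSNs or D2-MSNs), which gives the IP libraries.

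All 18 inputs came from mice of the strain C57BL/6, labelled 8-12 weeks of age, that carried the RT allele. The D1-inputs were from RT; D1-Cre mice (line FK150) and the D2-inputs from RT; D2-Cre mice (line ER44). Each line gave 3 libraries of controls (Con), which were housed with mice of their own strain, 3 of resilient (Res) and 3 of susceptible (Sus) mice. The Res and Sus mice had met an aggressive CD1 mouse daily for up to 10 days and were sorted by their social interaction 24 h after the last defeat. Each library pooled the tissue of 2 mice. Each line is 1 transgenic founder line that is hemizygous for a bacterial artificial chromosome (BAC), so the transgene, its place of insertion and other differences between the lines cannot be told apart from one another here. There were no inputs of mice without Cre among the libraries used. The study took mice from several batches of defeat and sequenced randomly chosen samples in sets. The sample labels used here name neither, so a part of batch in the line differences was not tested.

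Drd1 and Drd2 encode the dopamine receptors that mark the direct and the indirect pathway MSNs of the striatum. In BAC mice a long piece of genomic DNA around such a gene drives Cre, and a piece of this size can also hold neighboring genes. *Ankk1*, a predicted kinase gene, and *Ttc12*, whose protein takes part in the assembly of dynein arms of motile cilia, are the neighbors of *Drd2* on chromosome 9 of the mouse and lie next to it in humans too. Which genes the BACs of these lines carry is not given in the sources used here.

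The inputs held 18384265 to 28179940 counts on genes, with a median of 20682565.5, from 18384265 to 24825274 in D1-inputs and from 18650045 to 28179940 in D2-inputs. Reads assigned to no annotated feature were taken as a share of these reads and the counts on genes together. Ambiguous, multiply aligned and unaligned reads were left out of this share. It was 25.1% ± 1.08 (SD, n = 9) in D1-inputs and 25.7% ± 0.834 (SD, n = 9) in D2-inputs. The difference was not larger than the spread between libraries (two-sided exact permutation test, p = 0.185). The lines differed in *Rn45s*, the precursor of ribosomal RNA, which held 7.44% ± 3.39 of the counts on genes in D1-inputs and 11.5% ± 1.29 in D2-inputs (two-sided exact permutation test over 9 and 9 libraries, p = 0.0034). This gap was widest in Con, with 3.62% ± 1.54 against 11.2% ± 0.969 (n = 3 each), and narrowest in Sus, where the lines differed by -0.371 percentage points (D1 minus D2). With 3 libraries against 3 an exact test cannot go below 0.1, and it gave 0.1 in Con, 0.1 in Res and 0.8 in Sus. The interaction of line and stress did not pass for *Rn45s* in edgeR (adjusted p = 1.00). The calls given below were repeated by leaving *Rn45s* out, by taking it as a covariate and by leaving out the 6 Con inputs.

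Few genes differed between the lines. With stress group as a covariate, edgeR's quasi-likelihood test called 3 of 15063 genes (0.0199%), that is, genes that differed over 1.5-fold with an adjusted p under 0.05. *Ttc12* was lower in D1-inputs than in D2-inputs, whereas *Cldn23*, a tight junction claudin, and *Mid1*, a microtubule-associated ubiquitin ligase of the X chromosome, were higher. These were also the 3 genes (0.0199%) past that p with no limit on the fold, 2 higher in D1 (0.0133%) and 1 higher in D2 (0.00664%). At an unadjusted p under 0.05 there were 782 genes (5.19%), and under 0.01 there were 180 (1.19%). The 9 D1-inputs and 9 D2-inputs did not overlap for 4 genes (0.0266%), namely *Ttc12*, *Cldn23*, *Fut10* and *Adk*.

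The depth allowed a narrow statement for most genes. The 95% interval of the line difference lay within a 1.5-fold change in either direction for 13060 genes (86.7%). This share was 6.83% of 1304 genes under 1 CPM, 79.0% of 3287 genes from 1 to 8 CPM, 98.7% of 6862 genes from 8 to 64 CPM and 99.7% of 3610 genes over 64 CPM, where CPM is counts per 1000000 counts of a library after normalization. For genes of low counts a difference of 1.5-fold was thus mostly not detectable, and 196 genes entered the test only through D1-inputs and 103 only through D2-inputs.

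**Figure D1:**
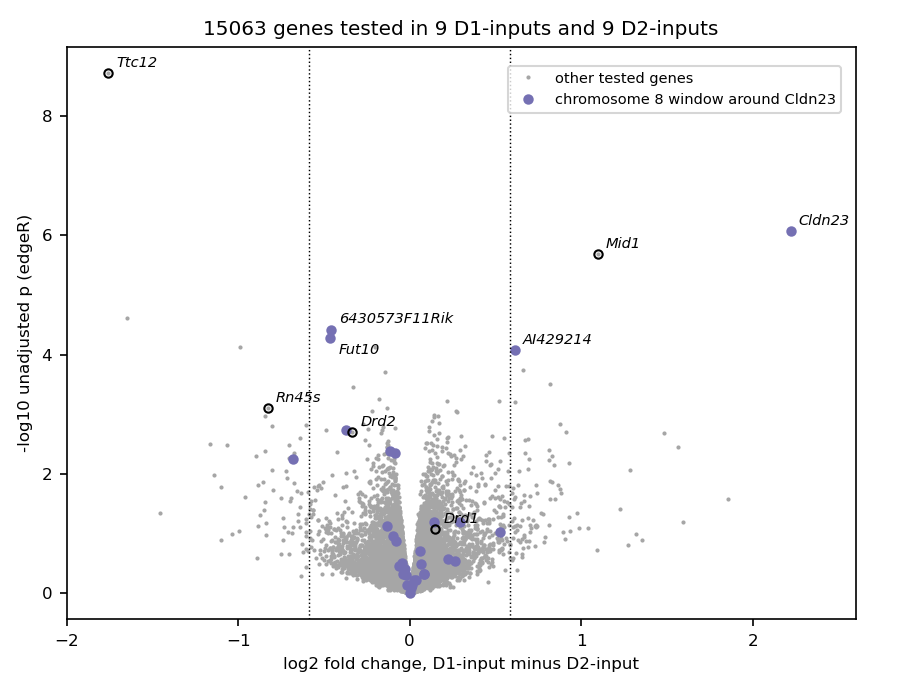
Log2 fold change of each of the 15063 tested genes between D1-inputs and D2-inputs (x axis, D1 minus D2) against -log10 of the unadjusted p of edgeR (y axis); dotted lines mark a 1.5-fold change and filled colored points are the genes of the chromosome 8 window from 30 to 40 Mb. *Ttc12*, *Cldn23* and *Mid1* stand apart from the other genes, and *Fut10*, *6430573F11Rik* and *AI429214* of that window are among the next.

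*Ttc12* (chromosome 9, 49436963 to 49486225, minus strand, GRCm38) differed most firmly. In D1-inputs its levels were 2.75, 3.86 and 2.01 CPM in Con, 2.51, 2.61 and 1.51 CPM in Res and 2.42, 2.11 and 2.54 CPM in Sus. In D2-inputs they were 5.35, 9.27 and 9.53 CPM in Con, 8.70, 8.49 and 7.47 CPM in Res and 11.3, 9.83 and 5.47 CPM in Sus. The lines did not overlap, since the highest D1-input (Con, 3.86 CPM) lay below the lowest D2-input (also Con, 5.35 CPM). The means were 2.48 ± 0.644 and 8.38 ± 1.97 CPM (SD, n = 9), with a log2 fold change of -1.76 (SE 0.166, edgeR adjusted p = 2.85e-05). A two-sided exact permutation test over the 18 libraries gave p = 4.11e-05, the smallest that 9 against 9 libraries can give. That p follows from the lack of overlap. The log2 fold change was -1.49 in Con, -1.89 in Res and -1.91 in Sus.

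*Ankk1* (chromosome 9, 49415194 to 49427021, minus strand) had too few counts to enter the test and is given by its counts. The D1-inputs held 0, 0 and 1 counts in Con, 0, 0 and 0 in Res and 3, 2 and 1 in Sus, and the D2-inputs held 5, 8 and 1 in Con, 3, 7 and 8 in Res and 12, 2 and 6 in Sus. All 9 D2-inputs thus had at least 1 count, whereas 5 of 9 D1-inputs had none, although the ranges overlap between 1 and 3 counts. Summed over libraries there were 7 counts in D1 and 52 in D2, a ratio of D2 to D1 of 7.88 after normalization, with a 95% exact interval from 3.57 to 20.6 that covers counting error only. The mean log2 CPM, with a prior count of 2 that shrinks the size of the difference, was lower in D1 by a difference of -1.48 (two-sided exact permutation test over 9 and 9 libraries, p = 0.00037). Among all genes with a count, edgeR gave *Ankk1* a log2 fold change of -2.87 with an adjusted p of 0.181, so it did not pass there.

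*Drd2* (chromosome 9, 49340627 to 49408177, plus strand), the gene that drives Cre in the D2 line, did not pass the test in inputs. Its lowest, median and highest levels were 64.8, 82.2 and 109 CPM in D1-inputs and 86.4, 106 and 127 CPM in D2-inputs, which overlap. The log2 fold change was -0.34 (SE 0.0939, edgeR adjusted p = 0.687), and the two-sided exact permutation test over the 18 libraries gave p = 0.0059. *Drd1* (chromosome 13, 54051183 to 54055705), the gene that drives Cre in the D1 line, was 201 ± 31.3 CPM in D1-inputs and 181 ± 19.8 CPM in D2-inputs (SD, n = 9), a log2 fold change of 0.15 (SE 0.0814, adjusted p = 0.960). *Rpl22*, the ribosomal protein gene that holds the HA tag in all these mice, was at 54.7 ± 1.67 and 55.1 ± 2.81 CPM. The log2 fold change of *Rpl22* was -0.01, and it missed the threshold too.

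**Figure D2:**
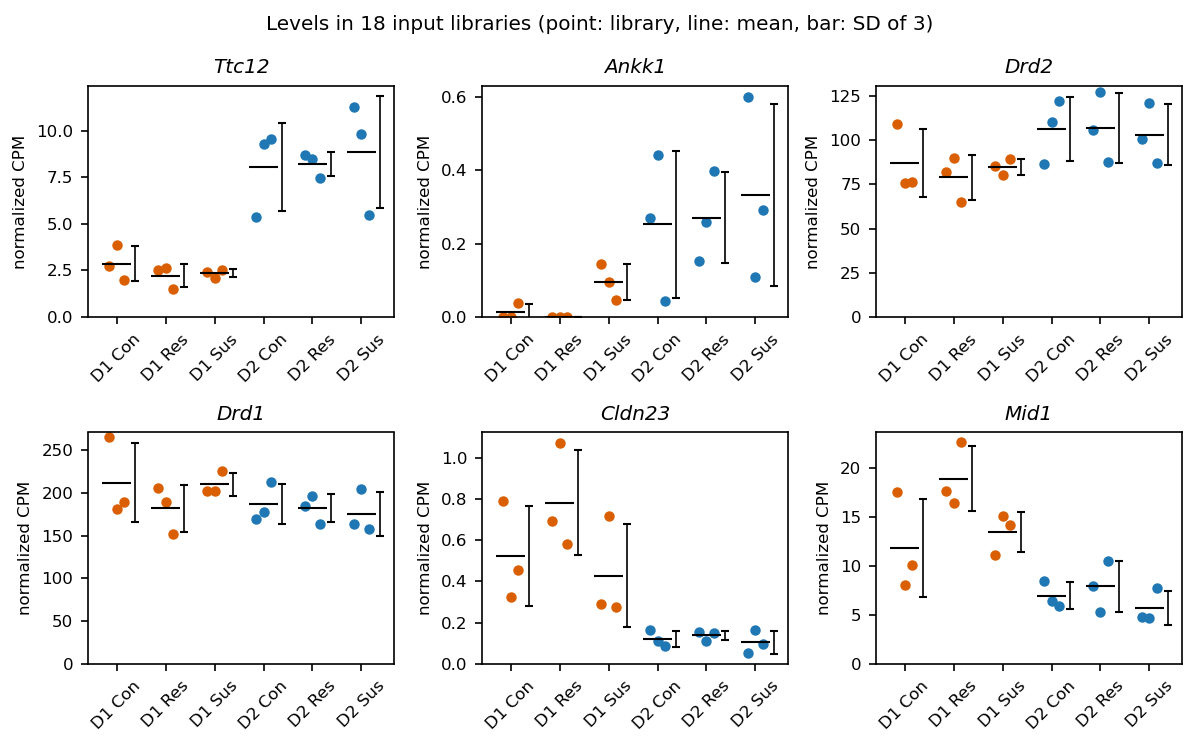
Normalized CPM (y axis) of 6 genes in the 18 inputs, by line and stress group (x axis); points are libraries, horizontal lines are means of 3 libraries and vertical bars are ± 1 SD. *Ttc12* and *Cldn23* do not overlap between the lines, *Mid1* and *Ankk1* overlap in part, and so do *Drd2* and *Drd1*.

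The other neighbors of the receptor genes gave no further call. Within 1 Mb of the start of *Drd2*, 18 genes were annotated and 11 tested. Of these, 1 (*Ttc12*) passed an adjusted p of 0.05, against 0.0199% of all genes tested. At an unadjusted p under 0.05 there were 3 (*Ttc12*, *Drd2* and *Zbtb16*), against 5.19% of all genes tested. The log2 fold changes of the 11 ran from -1.76 (*Ttc12*) to 0.27 (*Tmprss5*), with a median of -0.01. *Ncam1*, the neural cell adhesion molecule gene next to *Ttc12*, lay at 389 ± 16.4 CPM in D1-inputs and 390 ± 31.5 CPM in D2-inputs, with a log2 fold change of -0.01 and a 95% interval from -0.09 to 0.08. Within 1 Mb of the start of *Drd1*, 27 genes were annotated and 23 tested, and 0 passed by edgeR, with 1 (*Sncb*, beta-synuclein) at an unadjusted p under 0.05 and 0 under DESeq2. Their log2 fold changes ran from -0.30 (*Gm2762*) to 0.43 (*Ror2*), with a median of -0.01. The difference between the neighborhoods was not tested.

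*Cldn23* (chromosome 8, 35824712 to 35826559, minus strand) was a gene of low counts. Its lowest, median and highest levels were 0.277, 0.583 and 1.07 CPM in D1-inputs, from 6 to 23 counts, and 0.0499, 0.111 and 0.163 CPM in D2-inputs, from 1 to 3 counts. Each of the 9 D1-inputs lay above each of the 9 D2-inputs. The log2 fold change was 2.22 (SE 0.312, edgeR adjusted p = 0.0064). Without overlap the two-sided exact permutation test can only give its smallest p (4.11e-05). That p restates the lack of overlap and is not adjusted for the 15063 genes tested. From the summed counts, 112 in D1 and 22 in D2, the ratio of D1 to D2 was 4.80, with a 95% exact interval from 3.02 to 7.96. *Cldn23* entered the test through the D1-inputs alone, since 5 of 9 D1-inputs and 0 of 9 D2-inputs reached the level of the filter. Among all genes with a count, with no such filter, its adjusted p was 0.0052 (log2 fold change 2.22). The log2 fold changes were 2.07 in Con, 2.49 in Res and 2.01 in Sus. Without the 6 Con inputs its adjusted p was 0.242 at a log2 fold change of 2.29.

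*Mid1* (chromosome X, 169685199 to 170005736, plus strand) spans the border of the pseudoautosomal region in C57BL/6 mice. Its lowest, median and highest levels were 8.01, 15.1 and 22.7 CPM in D1-inputs and 4.62, 6.40 and 10.5 CPM in D2-inputs. The lines overlapped, since 2 of the D1-inputs, both Con, lay at 8.01 and 10.0 CPM, below the highest D2-input at 10.5 CPM. The means were 14.7 ± 4.52 and 6.84 ± 1.95 CPM (SD, n = 9), with a log2 fold change of 1.10 (SE 0.164, edgeR adjusted p = 0.0104). It was 0.77 in Con, 1.27 in Res and 1.23 in Sus. When the fold itself was tested against 1.5 (glmTreat), *Mid1* did not pass. Of the 8 genes annotated within 1 Mb of the start of *Mid1*, 5 were tested. The other one at an unadjusted p under 0.05, as 5.19% of all genes were, was *Erdr1* (log2 fold change 0.60, SE 0.267, edgeR adjusted p = 0.945). *Erdr1* has near-identical copies whose reads may be split.

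The genes with small p-values were then placed along the genome. Of 234 windows of 10 Mb that held at least 20 tested genes, 125 held no gene at an unadjusted p under 0.01. Of all tested genes with a position 1.18% were under it, so an even spread would also leave windows empty. Whether the spread was even was not tested. The window from 30 to 40 Mb of chromosome 8 held 8 such genes of 32 tested (25.0%), the highest share of these windows, and the next window, from 40 to 50 Mb, held 4 of 41. Chromosome 8 as a whole held 8 of the 20 genes with the smallest p, with 5.18% of the tested genes. This window was singled out after its values were seen, so its count is a description with no test, and neighboring genes are not independent.

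**Figure D3:**
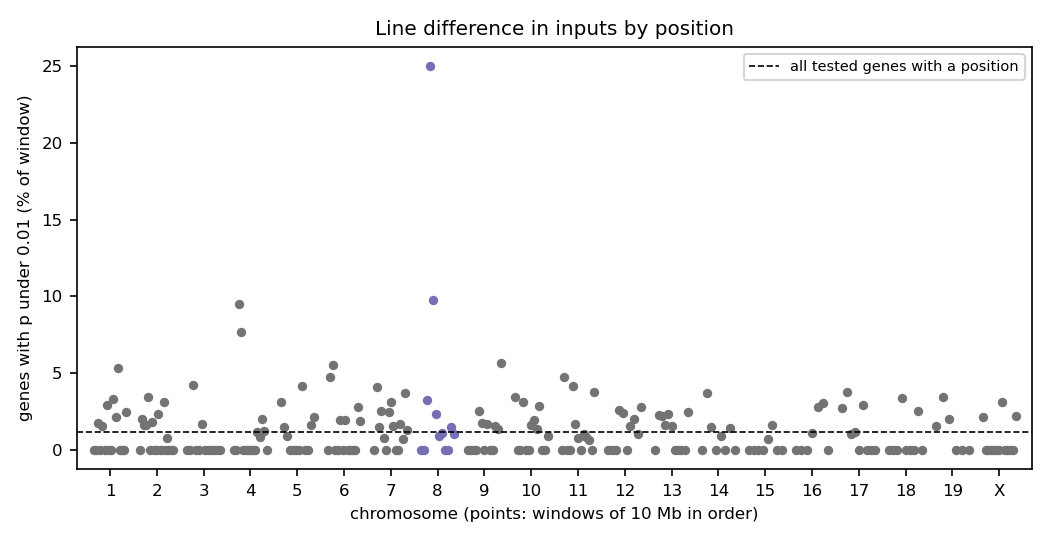
Share of tested genes with an unadjusted p under 0.01 between D1-inputs and D2-inputs (y axis, percent) in windows of 10 Mb along each chromosome (x axis), for the 234 windows with at least 20 tested genes; colored points are chromosome 8 and the dashed line is the share over all tested genes (1.18%). The highest point, 25.0%, is the window from 30 to 40 Mb of chromosome 8.

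The 8 genes of the window did not lie one way. *Cldn23* and *AI429214* had higher means in D1-inputs, and *Rnf122*, *Mak16*, *Fut10*, *Tex15*, *Ppp2cb* and *6430573F11Rik* had lower means. Over all 32 tested genes of the window the median log2 fold change was 0.00 and the median of its absolute value was 0.08, against 0.04 from 20 to 30 Mb, 0.06 from 40 to 50 Mb and 0.07 from 50 to 60 Mb.

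*Fut10* (chromosome 8, 31187331 to 31261738), a fucosyltransferase gene, had 4.75, 7.04 and 8.93 CPM as its lowest, median and highest level in D1-inputs and 9.01, 9.84 and 10.6 CPM in D2-inputs. These did not overlap, by a narrow margin, and the log2 fold change was -0.46 (SE 0.0894, edgeR adjusted p = 0.130). *6430573F11Rik*, now named *Trmt9b* and related to tRNA methyltransferases, was at 7.81 ± 0.856 CPM in D1-inputs and 10.8 ± 1.49 CPM in D2-inputs, with a log2 fold change of -0.46 (SE 0.0861, adjusted p = 0.114). *AI429214* (chromosome 8, 36993604 to 36995533), whose role is not given here, lay at 3.78 ± 0.505 and 2.49 ± 0.593 CPM, with a log2 fold change of 0.61 (SE 0.123, adjusted p = 0.141). None of these passed the adjusted threshold in edgeR over the 18 libraries, although *6430573F11Rik* did without D2-input Sus replicate 1 (adjusted p = 0.0199), and DESeq2 gave adjusted p-values of 0.0020, 0.0020 and 0.0063 for *Fut10*, *6430573F11Rik* and *AI429214*.

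The remaining members of the window differed less in level or were measured with less precision. *Tex15*, a gene of meiosis in germ cells, had the largest of these log2 fold changes, -0.68 (SE 0.219), at 1.07 ± 0.440 CPM in D1-inputs and 1.71 ± 0.408 CPM in D2-inputs. For *Rnf122*, a ubiquitin ligase gene, it was -0.37 (SE 0.103), at 5.85 ± 0.977 and 7.56 ± 1.02 CPM. *Mak16*, which serves ribosome biogenesis, had -0.11 (SE 0.0350), and *Ppp2cb*, a catalytic subunit of protein phosphatase 2A, had -0.09 (SE 0.0271). All 4 overlapped between the lines and had edgeR adjusted p-values from 0.687 to 0.740.

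**Figure D4:**
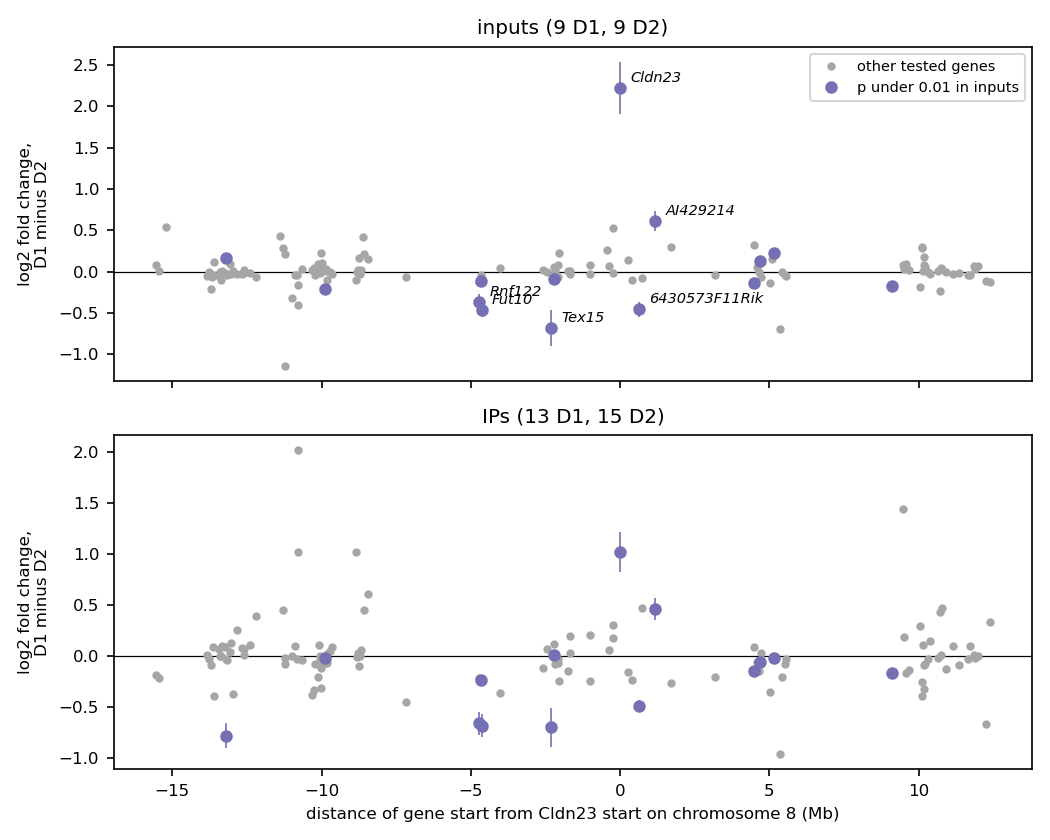
Log2 fold change between the lines (y axis, D1 minus D2) of tested genes of chromosome 8 against the distance of their start from that of *Cldn23* in Mb (x axis), in the 18 inputs (top) and the 28 IPs (bottom); colored points are genes with an unadjusted p under 0.01 in inputs, with bars of ± 1 SE. Genes that start at or beyond 50 Mb of the chromosome are not plotted. *Cldn23* and *AI429214* lie above 0 and *Rnf122*, *Fut10*, *Tex15* and *6430573F11Rik* below 0 in both kinds of library.

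The same genes were then read in the IPs, 13 of the D1 line and 15 of the D2 line, which the tests in inputs did not use. *Ttc12* and *Ankk1* were named in advance, with earlier results of these data known, so the IPs are no independent check of them. Inputs were the part of such homogenates that was not precipitated, so inputs and IPs can share mice. In IPs the line and the precipitated cell type cannot be told apart, with 5804 of 14224 tested genes (40.8%) at an adjusted p under 0.05. *Ttc12* ran from 0.675 to 2.07 CPM in D1-IPs and from 11.6 to 16.9 CPM in D2-IPs, with no overlap (log2 fold change -3.55, SE 0.0984, edgeR adjusted p = 1.36e-21). *Ankk1* had 0 to 2 counts in D1-IPs and 6 to 25 counts in D2-IPs. Both thus lay lower in the D1 line in IPs, as in inputs.

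*Cldn23* was higher in D1-IPs too, at 0.970 ± 0.300 CPM (n = 13) against 0.482 ± 0.176 CPM (n = 15), with a log2 fold change of 1.02 (SE 0.194, edgeR adjusted p = 9.67e-05). For *Mid1* the IPs gave 6.74 ± 1.35 and 5.44 ± 2.67 CPM, a log2 fold change of 0.35 (SE 0.187, adjusted p = 0.139), so that 2 of the 3 genes called in inputs passed in IPs. Of the 8 genes of the chromosome 8 window, 7 passed an adjusted p of 0.05 in IPs, each with the sign it had in inputs, 2 higher in D1 (19.6% of all genes were) and 5 higher in D2 (21.3% of all genes). The other one was *Ppp2cb* (log2 fold change 0.01). The IP values were -0.68 for *Fut10*, -0.49 for *6430573F11Rik*, 0.46 for *AI429214*, -0.66 for *Rnf122*, -0.70 for *Tex15* and -0.24 for *Mak16*. Over the whole window 18 of 31 genes tested in IPs (58.1%) passed, against 40.8% of all genes, and line and cell type cannot be told apart in either share.

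On either side of the window, some genes had like values in both kinds of library and some did not. *Mtus1* was 65.8 ± 5.51 CPM in D1-inputs and 56.5 ± 4.82 CPM in D2-inputs (log2 fold change 0.22, SE 0.0535, adjusted p = 0.548) but -0.02 in IPs. *Hgsnat*, a lysosomal acetyltransferase gene from 20 to 30 Mb, had -0.20 in inputs (SE 0.0408, adjusted p = 0.141) and -0.02 in IPs (adjusted p = 0.640). *A930013F10Rik*, the other gene from 20 to 30 Mb with a small p-value in inputs, was 19.7 ± 1.94 CPM in D1-inputs and 17.6 ± 1.08 CPM in D2-inputs. In IPs it was 7.55 ± 1.13 and 12.9 ± 3.90 CPM, and it passed there with the opposite sign. *Micu3*, a regulator of the mitochondrial calcium uniporter, was -0.14 in inputs (SE 0.0311, adjusted p = 0.267) and -0.15 in IPs (adjusted p = 0.0048). *Fat1*, an atypical cadherin gene, was -0.18 in inputs (SE 0.0435, adjusted p = 0.548) and -0.17 in IPs (adjusted p = 0.0158). From 40 to 50 Mb, 2 of the 4 genes with small p-values in inputs (*Micu3* and *Fat1*) passed in IPs, with the sign they had in inputs. This is near the share of that whole window that passed in IPs, 17 of 40 genes (42.5%), and of all genes (40.8%).

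The line difference was then compared between Con, Res and Sus. For the interaction of line and stress, edgeR called 0 of 15063 genes (0%) at an adjusted p under 0.05, with 314 (2.08%) at an unadjusted p under 0.05, and DESeq2 called 2, *Malat1* and *Rec8*. In the model of 6 group means, the line difference called 1 gene within Con (0.00664%), which was *Rn45s* (log2 fold change -1.76, SE 0.233, edgeR adjusted p = 0.0123), and 0 within Res and 0 within Sus. At an unadjusted p under 0.05 there were 458 genes in Con (3.04%), 432 in Res (2.87%) and 548 in Sus (3.64%), and with the 3 libraries a side fitted alone 0 were called in each stress group. *Ttc12* did not pass within a single stress group, with adjusted p-values of 0.270 in Con, 0.107 in Res and 0.0880 in Sus, although its fold was 2.81, 3.71 and 3.75.

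Gene lists of cell types and states were read to see whether the punches of the lines held like tissue. None of the 23 lists had a member at an adjusted p under 0.05, and counts of members at an unadjusted p under 0.05 are to be read against 5.19% of all genes. Over all genes tested the median log2 fold change was 0.00, with 7398 genes higher in D1 and 7665 higher in D2. In bulk tissue, fewer cells of a type and less RNA per cell cannot be told apart.

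Genes of both MSN classes had slightly higher values in D1-inputs over the 18 libraries, though for several of them hardly so within Res. All 10 pan-MSN genes did so, with a median log2 fold change of 0.13 (from 0.05 to 0.17), and 3 of them (*Rgs9*, *Rasd2* and *Meis2*) had an unadjusted p under 0.05. *Ppp1r1b*, which encodes DARPP-32, was at 761 ± 113 CPM in D1-inputs and 693 ± 72.2 CPM in D2-inputs, and *Bcl11b*, a transcription factor of MSNs, was at 306 ± 21.4 and 295 ± 23.5 CPM. The D1-MSN genes had a median of 0.11, with 7 of 8 higher in D1 and 2 (*Pdyn* and *Slc35d3*) at an unadjusted p under 0.05. The D2-MSN genes had a median of 0.08, with 6 of 8 higher in D1 and 1 (*Drd2*) at an unadjusted p under 0.05. *Drd2* had the lowest log2 fold change of these 8 genes, and *Adora2a*, the adenosine A2a receptor gene, had the highest, 0.15 (SE 0.0872, adjusted p = 0.960). *Tac1*, the substance P precursor gene of D1-MSNs, had 0.07. In IPs the same genes parted by class, with *Pdyn* at 2.35 and *Adora2a* at -1.49. Within Con, Res and Sus inputs the log2 fold change was 0.18, 0.03 and 0.20 for *Ppp1r1b*. For *Pdyn* it was 0.25, 0.01 and 0.21, and for *Adora2a* 0.18, 0.05 and 0.24. *Slc35d3* varied less (0.17, 0.12 and 0.21), and *Eya1* ran the other way (-0.10, 0.20 and -0.36). No interaction of line and stress was called for these genes.

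Cortical excitatory neuron genes varied widely from library to library. Of 10 such genes 8 were higher in D2-inputs, with a median log2 fold change of -0.29 and 1 (*Rorb*) at an unadjusted p under 0.05. Their summed level ran from 314 to 1317 CPM in D1-inputs and from 158 to 1190 CPM in D2-inputs, so the lines overlapped over nearly the whole range. *Slc17a7*, the vesicular glutamate transporter gene of cortical neurons, was at 414 ± 253 and 509 ± 250 CPM, and *Neurod6*, a cortical transcription factor gene, at 13.2 ± 9.43 and 16.4 ± 7.93 CPM. These genes were present in all inputs, and their part in the line difference was not tested.

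Interneuron, glial and vascular genes had medians near 0, although 7 of 8 cholinergic genes (from -0.01 to 0.41) and 6 of 8 microglial genes were higher in D1-inputs. The median log2 fold change was 0.05 for 8 cholinergic, -0.01 for 9 GABAergic interneuron, 0.01 for 8 astrocyte, 0.00 for 8 oligodendrocyte, 0.02 for 8 microglial and -0.05 for 7 endothelial genes, with 0 members at an unadjusted p under 0.05 in each. *Chat*, the acetylcholine synthesis gene, had 0.08 (SE 0.161), *Slc18a3*, the vesicular acetylcholine transporter gene, 0.05, and the interneuron genes *Pvalb* and *Sst* -0.15 and -0.01. *Gfap* and *Aqp4* of astrocytes had 0.03 each, *Mog* and *Mbp* of myelin -0.06 and 0.01, *Cx3cr1* and *P2ry12* of microglia 0.01 and 0.06, and *Cldn5* and *Pecam1* of endothelium 0.06 and 0.01. *Cldn5*, a claudin like *Cldn23*, thus had no line difference that passed.

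Septal and other forebrain genes had a median of 0.02 over 6 tested, with *Zic1* at 0.02 and *Zic4* at 0.07. The 5 tested choroid plexus genes were all higher in D1-inputs at a median of 0.25, but their summed level was at most 38.6 CPM in D1-inputs and 38.5 CPM in D2-inputs, and *Ttr* and *Kl* had 0.25 (SE 0.930) and 0.11 (SE 0.114). The 5 tested ependymal genes had a median of 0.08, with *Foxj1*, a regulator of motile cilia, at 0.08 (SE 0.124) and *Dnali1*, a dynein arm gene, at 0.02 (SE 0.341). All 5 were higher in D1-inputs, up to 0.61, and none passed the test. The list summed to at most 15.6 CPM in D1-inputs and 12.6 CPM in D2-inputs. Whether these genes relate to the difference in *Ttc12* was not tested. Of the 5 blood genes only *Alas2* was tested, at 0.10.

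Genes that respond to activity, time of day or stress hormones also gave no call. Immediate early genes had a median of -0.06 (8 of 10 higher in D2), with *Fos* at -0.27 and *Fosb* at 0.04. Circadian clock genes had -0.01, with *Per1* at -0.04, *Per2* at 0.01 and 1 of 13 (*Cry1*) at an unadjusted p under 0.05. Glucocorticoid response genes had -0.01, with *Fkbp5* at -0.01, *Sgk1* at 0.07 and 1 of 8 (*Zbtb16*) at an unadjusted p under 0.05. Heat shock genes had 0.01, with *Hspa1a* at -0.40 (SE 0.194) and *Hspa1b* at -0.32 (SE 0.330), which are near-identical copies whose reads may be split.

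Dopamine system genes had a median of -0.01 over 11 tested, and the 3 transgene and tag genes *Drd1*, *Drd2* and *Rpl22* also had -0.01. Nuclear long RNAs had a median of 0.05, with 2 of 6 at an unadjusted p under 0.05, namely *Malat1* (-0.23, SE 0.0847) and *Neat1* (0.21, SE 0.0765), which had opposite signs. For *Malat1* the value was -0.57 in Con, -0.25 in Res and 0.13 in Sus, and DESeq2 called its interaction. The Y-linked genes *Ddx3y* and *Eif2s3y* were at 0.04 and 0.06, and the 4 tested sex-linked genes had a median of 0.05. Among 8 genes that vary among mouse strains, with a median of -0.01, *Nnt* and *Gabra2* had -0.02 and 0.00, and 1 (*Erdr1*) had an unadjusted p under 0.05.

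**Figure D5:**
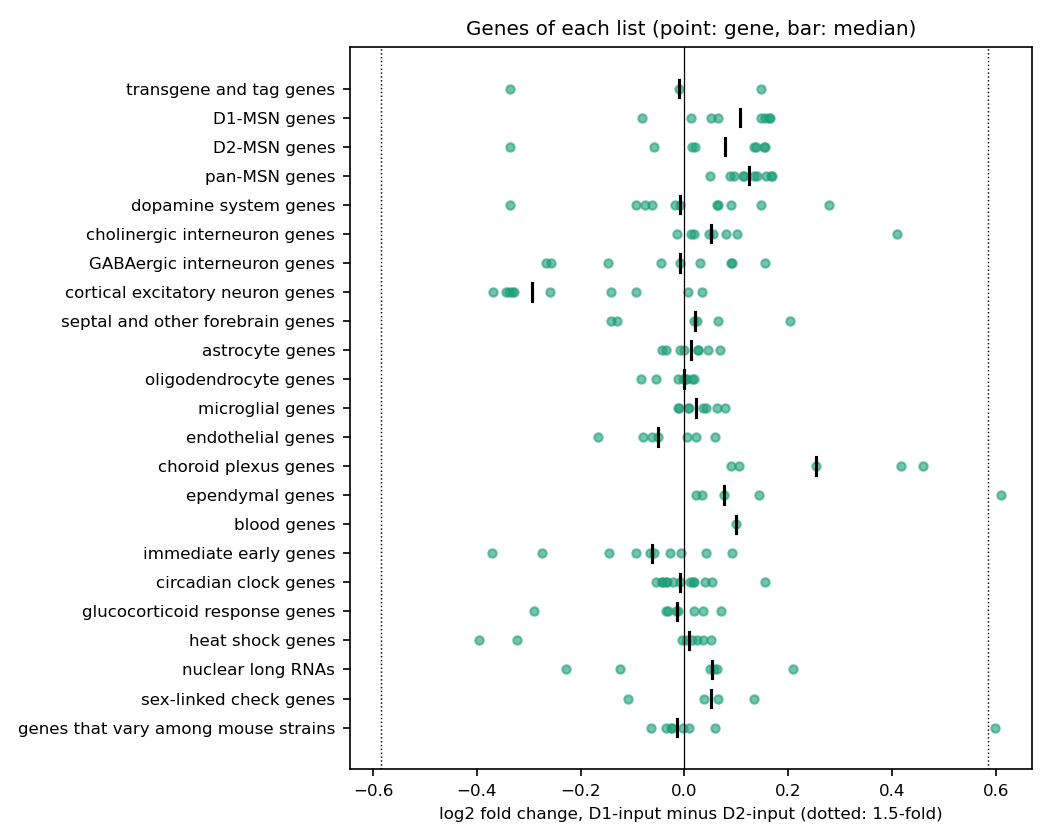
Log2 fold change between D1-inputs and D2-inputs (x axis, D1 minus D2) of the tested genes of 23 lists (y axis); points are genes, black bars are medians and dotted lines mark a 1.5-fold change. Pan-MSN genes lie above 0, most cortical excitatory neuron genes below 0, and glial genes near 0, all with adjusted p-values over 0.05.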

How the data were processed

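Of the libraries in the deposited count table, 18 inputs were used for the line comparison and 28 IPs for a second reading. The deposited values are counts of whole reads for each gene symbol, not normalized, which the authors made after poly-A selection and stranded library preparation, with cutadapt, STAR on mm10 and HTSeq per the labels; versions, the annotation and the strand setting of the counting are not given in the sources used here. The table listed 24552 genes and 5 entries that name no gene, which held 35.9% to 40.0% of the reads in inputs and were left out. A further 2 columns had no matching sample description and were not used, and neither was the table of libraries labelled Sirt1-KO.

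Genes were kept by filterByExpr (minimum count 10, minimum total 15), scaled by TMM, and tested with edgeR 4.0.16 in R 4.3.3 by the quasi-likelihood test of line with stress group as a covariate. The Benjamini-Hochberg adjustment ran over all tested genes, and a call needed an adjusted p under 0.05 with a difference over 1.5-fold, the thresholds of the study's methods. Standard errors follow from the F statistic. Exact permutation tests were two-sided, on log2 CPM with a prior count of 2. *Ankk1* did not pass the filter, so its exact test replaces the planned fit. IPs were fitted with 6 group means. Intervals of count ratios are exact binomial and, like all floors, cover counting error only, as reads carried no molecular identifiers. Each library was a pool of 2 mice, and p-values measure the spread between these pools.

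Positions are of GENCODE vM21 on GRCm38 (mm10), matched by symbol for 23986 genes, with 490 from RefSeq and 76 without one. Same-numbered libraries of the lines were not paired (see the closing section), and none of 18 replicate pairs looked like 1 library (chi-square 3.60 to 33.4 per gene). Programs were tested on simulated counts. Figures used Python with matplotlib.

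The groups, members and lists were chosen with earlier results of these data known. The genes named by rule were *Ttc12* and *Ankk1*, *Drd1*, *Drd2* and *Rpl22*, called genes within 1 Mb of *Drd1* or *Drd2*, all called genes, and in each list the members past an adjusted p of 0.05 or else the first 2 tested. All others, with *Rn45s* and the chromosome 8 genes, were chosen after their values were seen.

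Alternatives were DESeq2 1.42.0, RLE size factors, no filter on low counts, a mean of at least 50 counts, line alone, replicate number as a block, 6 group means, the share of reads outside genes as a covariate, glmTreat, and each library left out in turn. Leaving out *Rn45s*, taking *Rn45s* as a covariate and leaving out the 6 Con inputs were added after the data were seen. Some results are not reported here.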

Additional observations from a re-analysis of the deposited data

Results flagged for a closer look

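Dixon's test was run on 46 groups of 9 libraries and marked 3, and chance alone marks about 1 in 20 groups. *Rpl22* had its highest D1-input at 58.3 CPM (Con, replicate 2), apart from the next at 55.3 CPM. *Mtus1* had its lowest D1-input at 52.9 CPM (Res, replicate 3), apart from the next at 62.2 CPM. The counts on genes of D2-inputs had a highest value of 28179940 (Res, replicate 2), apart from the next at 22880551.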

How the results depend on the processing

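The count of 3 called genes ran from 3 to 4 when each of the 18 libraries was left out in turn, with *Cldn23*, *Mid1* and *Ttc12* in each of these sets. DESeq2 called 9, with those 3, *1110046J04Rik*, *AI429214*, *Gm13315* and *Rn45s* among them; the cause was not tested. It had 14 genes at an adjusted p under 0.05 with no limit on the fold, of which 6 lay from 20 to 50 Mb of chromosome 8. The other settings gave 2 to 4. *Cldn23* was not called when a mean of 50 counts was required, which leaves it out, nor without the 6 Con inputs, and *Mid1* was not called by glmTreat. *Ttc12* was called in every setting, with log2 fold changes from -1.91 to -1.65, and from -1.86 to -1.68 with a library left out. The chromosome 8 window held 6 to 8 genes at an unadjusted p under 0.01 with a library left out and 5 without the 6 Con inputs, a setting with fewer samples.

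For *Ankk1* the difference in log2 CPM ran from -1.64 to -1.35 with a library left out, with p from 0.00016 to 0.00090 in the exact test. It was -1.54 within Con, -1.89 within Res and -1.02 within Sus, with exact p-values of 0.1, 0.1 and 0.2. Among all genes with a count, edgeR gave -2.87 with and without the replicate block, with adjusted p-values of 0.345 and 0.181. For the interaction, DESeq2 called 2 genes, and edgeR 0 to 1 with a library left out; the 1 was *Rn45s*, without D1-input Con replicate 1. Within Con, 3 against 3 libraries fitted alone called 0. The difference in reads outside features ran from -0.881 to -0.417 percentage points, and without D1-input Sus replicate 1 its exact p was 0.0455. In IPs, 2 of the 3 genes passed with each library left out, and 2 to 3 in the other settings.

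Same-numbered libraries of the lines did not deviate together (r from -0.30 to 0.27, over 0.1 in 2 of 9 pairs, and 2 correlated best with their own number), and with the replicate number as a block 3 genes were called, the same 3. No called gene changed direction under these settings. Differences near 0 did, as *Rpl22* ran from -0.02 to 0.00 with a library left out, and the share of reads outside features differed by 0.0504 percentage points within Sus. Depth limits the genes under 1 CPM, *Ankk1* and *Cldn23* among them.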

Other observations

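Outside the groups already described, genes ranked next by p differed in level but missed the adjusted threshold in edgeR, and all were chosen after their values were seen. *Ndn*, an imprinted gene of neurons on chromosome 7, ran from 123 to 226 CPM in D1-inputs and from 83.9 to 182 CPM in D2-inputs (log2 fold change 0.61, SE 0.150, adjusted p = 0.548), and it was 0.83 in IPs (adjusted p = 1.08e-08). Its level in inputs overlapped between the lines.

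*Adk*, the adenosine kinase gene, ran from 30.5 to 35.3 CPM in D1-inputs and from 35.4 to 37.6 CPM in D2-inputs, with no overlap, although its log2 fold change was only -0.13 (SE 0.0336, adjusted p = 0.621). *Tmem163*, a zinc transporter gene of vesicles, had opposite signs in the kinds of library, with -0.33 in inputs (SE 0.0767, adjusted p = 0.404) and 1.48 in IPs (adjusted p = 7.30e-11). Why these genes differ was not tested.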
